A study of Mus musculus with 12 samples.

Results

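Psmb8, Psmb9, Psmb10, Psme1, Psme2, Tap1, Tap2, Tapbp and B2m encode proteins that cut, carry and load the peptides shown on MHC class I molecules. The genes were taken by name: each probe set (a group of short probes for 1 transcript) whose platform gene symbol was 1 of these 9 was used. That gave 13 of the 22626 probe sets tested and 8 of the 12393 genes they represent. Tap1 had 4 probe sets, Tapbp and B2m had 2 each, and Psmb8, Psmb9, Psmb10, Psme1 and Tap2 had 1 each. The probe set for Psme2 is also assigned to the related gene Psme2b, so its values are given as those of a shared set and are left out of every count of the 8 genes.

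Total spleen RNA from 12 mice was hybridised to Affymetrix MOE430A 2.0 arrays, 1 mouse per array. The question of the series is how DUSP1, a phosphatase that switches off MAP kinases, shapes the response to bacterial lipopolysaccharide (LPS). The 4 groups of 3 mice were DUSP1-/- mice 6 h after LPS, DUSP1-/- control mice, DUSP1+/+ mice 6 h after LPS, and DUSP1+/+ control mice. LPS from E. coli was given into the peritoneum at 10 µg per g of body weight, and the controls are labelled as having had no treatment, so injection without LPS is not among the groups. Strain, age, sex and the design of the deleted allele are not given in the labels, and p-values measure the spread between these mice. The arrays differ in sex transcripts: the Y-linked Eif2s3y read 316 and 53 in DUSP1+/+ controls 2 and 3 against 7 to 10 on the other 10 arrays, and Xist, which marks the inactive X of females, read 35 and 47 there against 1101 to 3949. The Y-linked Kdm5d (16 and 11 there, 10 to 13 elsewhere) and Uty (21 and 11 there, 9 to 11 elsewhere) were near the bottom of the scale. A male pattern of Xist and Eif2s3y was thus present on 2 of 3 DUSP1+/+ control arrays and on no other. Its part in the results below was not tested beyond leaving both arrays out.

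The standard proteasome cuts proteins with the catalytic subunits Psmb5, Psmb6 and Psmb7. Interferon-γ leads cells to make Psmb8, Psmb9 and Psmb10, which take the places of Psmb5, Psmb6 and Psmb7 in newly built particles, the immunoproteasome, and to make the cap subunits Psme1 and Psme2 (PA28α and PA28β) that open the particle. Tap1 and Tap2 form the pump that moves the peptides into the endoplasmic reticulum, tapasin (Tapbp) holds empty class I molecules at the pump, and β2-microglobulin (B2m) is the light chain of every class I molecule. B and T lymphocytes, dendritic cells and macrophages of the spleen all carry this machinery, and immune cells express immunoproteasome subunits without stimulation.

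Promoter sequence is shown for Tap1 and Tapbp, which rose with LPS in both genotypes, for Psmb9, which starts next to Tap1, and for Psmb8 and B2m, whose windows hold interferon or NF-κB motifs. The windows come from RefSeq on GRCm38.p6, and 8 of the 9 genes had one (9 windows, 2 of them for Psme2). Tap2 had none and was not searched. In the 250 bases before each start site, both strands were searched for the ISRE core (GAAANN followed by GAAA), the GAS element TTCNNNGAA, the NF-κB consensus, the GC box GGGCGG and the CCAAT box CCAAT. Capitals mark matches to these motifs, all lines run 5′ to 3′ on the plus strand, and each of the last 3 ends at the base before the start site.
Psmb9 to Tap1, chr17:34187331-34187555: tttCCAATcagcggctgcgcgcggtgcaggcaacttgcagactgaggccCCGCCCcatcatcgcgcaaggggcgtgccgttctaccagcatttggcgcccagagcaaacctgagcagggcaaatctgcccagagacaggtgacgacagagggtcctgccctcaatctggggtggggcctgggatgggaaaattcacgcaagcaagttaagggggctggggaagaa
Tapbp, chr17:33919358-33919477: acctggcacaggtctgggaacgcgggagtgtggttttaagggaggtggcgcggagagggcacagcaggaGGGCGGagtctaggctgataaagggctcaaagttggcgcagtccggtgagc
Psmb8, chr17:34198075-34198194: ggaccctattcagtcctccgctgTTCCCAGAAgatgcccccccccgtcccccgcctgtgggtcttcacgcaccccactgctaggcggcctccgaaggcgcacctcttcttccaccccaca
B2m, chr2:122147537-122147686: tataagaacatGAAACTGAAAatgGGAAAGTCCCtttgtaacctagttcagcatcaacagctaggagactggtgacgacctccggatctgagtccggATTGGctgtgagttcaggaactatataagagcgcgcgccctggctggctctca
Psmb9 and Tap1 are read in opposite directions from start sites 225 bases apart, so the first line is the stretch upstream of both. Its CCAAT box and its GC box therefore count for both genes. The ISRE core was found only in the B2m window among the 9, from -139 to -130 counted from the start site, and 2.98% of the 32851 windows of the table hold it. B2m also held an NF-κB match from -126 to -117, as did 7.25% of all windows. A GAS match lay in the Psmb8 window from -97 to -89, and 7.02% of all windows hold one. GC boxes lay in the windows of Psme1, Psme2, Tapbp, Psmb9 and Tap1 (32.7% of all windows), and CCAAT boxes in those of B2m, Tapbp, Psmb9 and Tap1 (33.8%). The CCAAT boxes of Tapbp, from -248 to -244 and from -165 to -161, lie upstream of its printed line. A match describes the letters and is not a measured binding site.

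The Dusp1 probe set read 4963, 2948 and 4996 in DUSP1-/- LPS arrays, 677, 1528 and 1443 in DUSP1-/- controls, 2248, 2142 and 2116 in DUSP1+/+ LPS arrays, and 479, 1354 and 627 in DUSP1+/+ controls. It was not lower in the arrays labelled DUSP1-/-, and since the labels do not place it relative to the deletion it gives no check of them. Every difference between genotypes below therefore rests on the labels. The array DUSP1-/- control 1 stood apart: its pancreas markers (5 of 8 listed measured) averaged 12.25 on the log2 scale (13.06 in DUSP1+/+ control 1, 9.35 in DUSP1-/- control 3 and 4.35 to 6.06 elsewhere). Its erythroid markers (4 of 6 measured) averaged 10.13 (6.10 to 9.28 elsewhere). Other arrays stood apart by other lists. Liver markers (7 of 8 measured) averaged 4.67, 10.31 and 7.76 in DUSP1-/- controls 1, 2 and 3. Lung markers (7 of 7 measured) averaged 4.36, 7.06 and 6.75 in these controls and 6.97, 4.64 and 6.21 in DUSP1-/- LPS arrays. In DUSP1+/+ mice the lung markers averaged 4.58 to 5.00 after LPS and 4.46 to 5.45 in controls. B cell markers (7 of 8 measured) averaged 8.09 to 8.35 in DUSP1-/- LPS arrays, 8.81 to 10.01 in DUSP1-/- controls, 8.46 to 9.15 in DUSP1+/+ LPS arrays and 9.62 to 9.85 in DUSP1+/+ controls, and were lower after LPS with no overlap in either genotype. Red pulp macrophage markers (6 of 6 measured) were lower too, at 8.62 to 9.14 in DUSP1-/- LPS arrays against 9.95 to 10.50 in DUSP1-/- controls, and at 7.77 to 7.98 in DUSP1+/+ LPS arrays against 10.53 to 10.82 in DUSP1+/+ controls. So was the mean of the spleen stroma markers (5 of 5 measured), at 6.17 to 6.82 against 7.98 to 8.47 in DUSP1-/- mice and at 7.26 to 7.51 against 7.93 to 8.72 in DUSP1+/+ mice. Tlx1, Tcf21 and Pdgfrb of that list were lower on average in both genotypes. Cxcl13 was higher, with mean intensities of 2113 against 1379 in DUSP1-/- and 3012 against 1712 in DUSP1+/+ mice. Nkx2-5 hardly moved in DUSP1+/+ mice (71.3 against 69.7). Hmox1 of the macrophage list overlapped in DUSP1-/- mice, at 902, 1575 and 1515 after LPS against 1721, 1144 and 1460 in controls. T cell markers (6 of 8 measured) averaged 6.95 to 7.66 after LPS against 8.33 to 8.93 in controls of DUSP1+/+ mice. In DUSP1-/- mice they averaged 6.96 to 7.49 against 7.49 to 9.07. The part of these markers in the values below was not tested, and in whole spleen fewer cells of a type and less RNA per cell cannot be told apart.

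At 6 h after LPS the transporter subunit Tap1 and the loading factor Tapbp rose in both genotypes, Tap1 about 3-fold and Tapbp about 2-fold. Psmb10 and Psme1 rose when the responses of both genotypes were averaged. Psmb8, Psmb9, Tap2 and B2m did not pass in any of these 3 comparisons. Each of the 8 genes read higher on every DUSP1+/+ LPS array than on any DUSP1+/+ control array, as 10.2% of all genes did. No gene of the 8 differed between genotypes at the threshold, before or after LPS. Differences are on the log2 scale with limma's standard error after ±, from intensities summarised by RMA, and adjusted p is limma's two-sided moderated test with Benjamini-Hochberg adjustment over all probe sets. A gene passed at an adjusted p below 0.05.

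**Figure D1:**
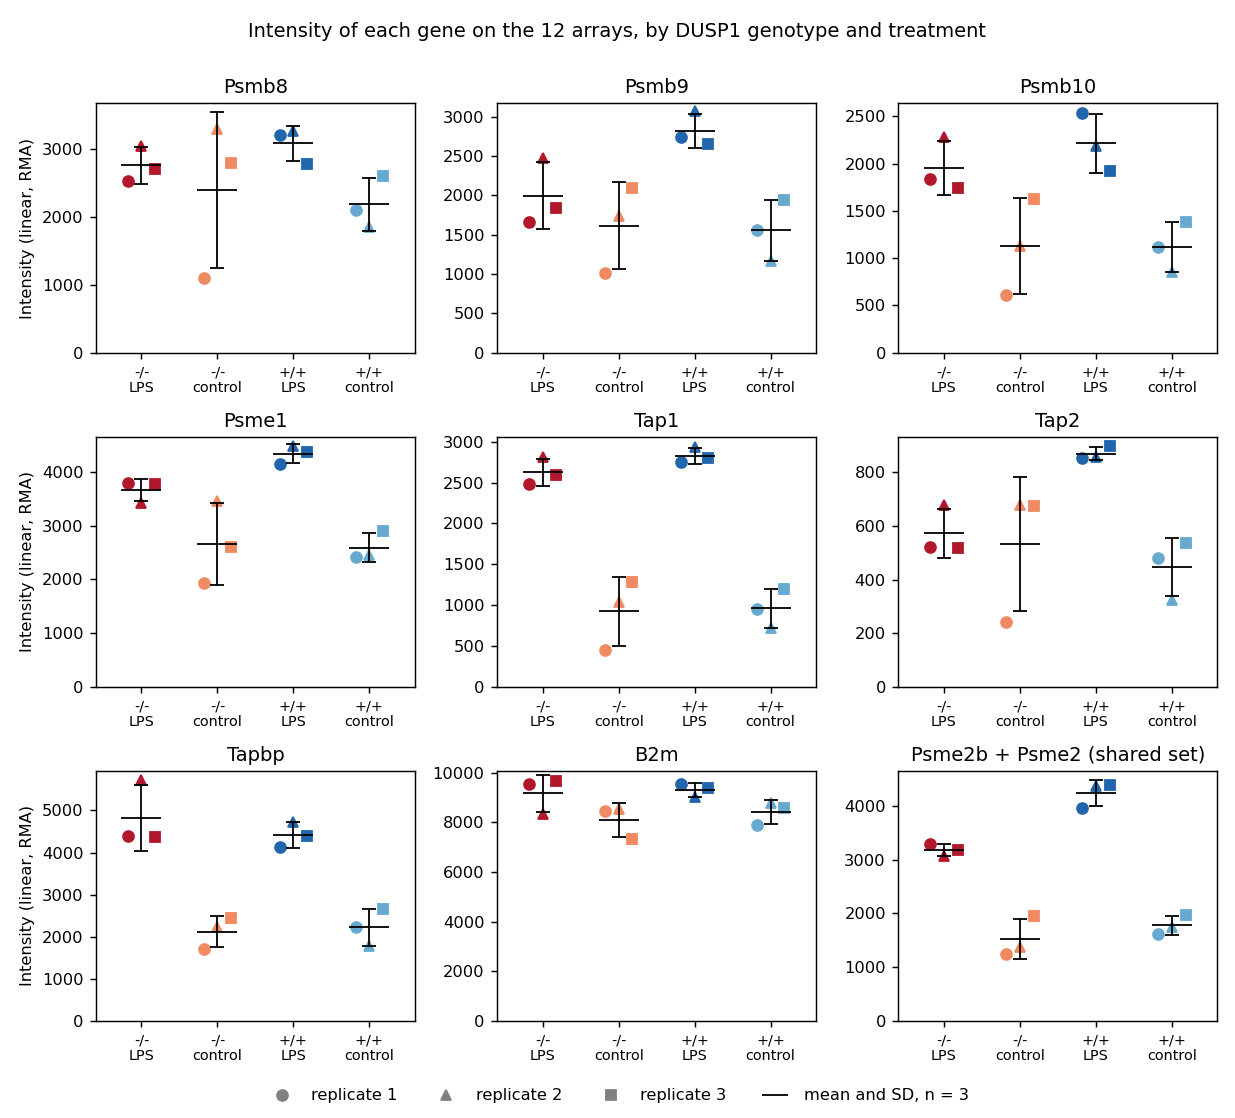
Linear RMA intensity of each gene on the 12 arrays, with the points of a group being its 3 mice and the bars their mean and SD. Tap1, Tapbp, Psmb10 and the shared Psme2b and Psme2 set separate the LPS arrays from the controls in both genotypes. Psmb8, Psmb9, Psme1, Tap2 and B2m do so in DUSP1+/+ mice only. Of all genes 11.3% read higher on all LPS arrays in DUSP1-/- mice and 10.2% in DUSP1+/+ mice. The array DUSP1-/- control 1 is the lowest of its group in every panel but B2m.

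Of the catalytic subunits, Psmb10 stood furthest from its controls. Psmb10, which replaces the trypsin-like Psmb7, had intensities of 1836, 2280 and 1744 in DUSP1-/- LPS arrays, against 612, 1131 and 1629 in DUSP1-/- controls. In DUSP1+/+ mice it had 2540, 2186 and 1919 after LPS, against 1114, 849 and 1384 in controls. All LPS arrays of either genotype lay above all its controls. The difference was 0.90 ± 0.32 in DUSP1-/- mice (adjusted p = 0.101) and 1.01 ± 0.32 in DUSP1+/+ mice (adjusted p = 0.0978), which did not pass in either alone. The averaged response of Psmb10, 0.95 ± 0.23, or 1.94-fold, passed (adjusted p = 0.0135). Without DUSP1+/+ controls 2 and 3, the arrays with male transcripts, it was 0.94 and no longer passed with 2 arrays fewer (adjusted p = 0.0619).

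Psmb9, which replaces the caspase-like Psmb6 and starts beside Tap1, had 1666, 2476 and 1837 in DUSP1-/- LPS arrays, against 1016, 1741 and 2091 in DUSP1-/- controls. It had 2737, 3067 and 2651 in DUSP1+/+ LPS arrays, against 1557, 1171 and 1946 in DUSP1+/+ controls. The DUSP1-/- groups overlapped and the DUSP1+/+ groups did not. The LPS difference of Psmb9 was 0.34 ± 0.28 in DUSP1-/- mice (adjusted p = 0.526) and 0.88 ± 0.28 in DUSP1+/+ mice (adjusted p = 0.0994). Averaged over genotypes it was 0.61 ± 0.20, just outside the threshold (adjusted p = 0.054, and below 0.05 under 7 of 23 alternatives).

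Psmb8, which replaces the chymotrypsin-like Psmb5, had 2519, 3042 and 2701 in DUSP1-/- LPS arrays, against 1094, 3289 and 2796 in DUSP1-/- controls. In DUSP1+/+ mice it had 3199, 3254 and 2780 after LPS, against 2101, 1843 and 2597 in controls. In DUSP1-/- mice control 1 was low, and the other 2 controls read as high as the LPS arrays. The differences of Psmb8 were 0.35 ± 0.34 (adjusted p = 0.613) in DUSP1-/- mice and 0.51 ± 0.34 (adjusted p = 0.511) in DUSP1+/+ mice. Without DUSP1-/- control 1 the DUSP1-/- difference was -0.14 ± 0.19 (adjusted p = 0.714).

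The cap subunit Psme1 had 3797, 3423 and 3764 in DUSP1-/- LPS arrays, against 1927, 3452 and 2604 in DUSP1-/- controls. It had 4147, 4487 and 4377 in DUSP1+/+ LPS arrays, against 2418, 2446 and 2893 in DUSP1+/+ controls. DUSP1-/- control 2 reached into the range of the DUSP1-/- LPS arrays, while the DUSP1+/+ groups lay well apart. Psme1 differed by 0.50 ± 0.20 with LPS in DUSP1-/- mice (adjusted p = 0.144) and by 0.75 ± 0.20 in DUSP1+/+ mice (adjusted p = 0.051). The DUSP1+/+ value passed under 9 of 24 alternatives, among them without DUSP1-/- control 1 (adjusted p = 0.0183) or DUSP1-/- control 2 (adjusted p = 0.0182), since all groups share 1 estimate of the spread. The averaged response of Psme1 was 0.62 ± 0.14, or 1.54-fold, and passed (adjusted p = 0.0104).

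The set shared by Psme2 and Psme2b had 3295, 3062 and 3182 in DUSP1-/- LPS arrays, against 1244, 1375 and 1951 in DUSP1-/- controls. It had 3971, 4369 and 4389 in DUSP1+/+ LPS arrays, against 1605, 1742 and 1970 in DUSP1+/+ controls. Every LPS array lay above every control. The shared Psme2b and Psme2 signal rose by 1.09 ± 0.18 in DUSP1-/- mice (2.13-fold, adjusted p = 0.00333) and by 1.26 ± 0.18 in DUSP1+/+ mice (2.4-fold, adjusted p = 0.00264). Which of the Psme2 and Psme2b transcripts gave this signal cannot be read from the probe set.

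Tap1 had the largest LPS difference of the 8 genes in both genotypes. Its brightest probe set had 2481, 2809 and 2591 in DUSP1-/- LPS arrays, against 449, 1034 and 1281 in DUSP1-/- controls. In DUSP1+/+ mice it had 2748, 2931 and 2797 after LPS, against 957, 714 and 1202 in controls. The 6 LPS arrays fell within a narrow band far above all 6 controls, and the 2 LPS groups overlapped. Tap1 rose by 1.64 ± 0.34 in DUSP1-/- mice (3.12-fold, adjusted p = 0.00974) and by 1.59 ± 0.34 in DUSP1+/+ mice (3.02-fold, adjusted p = 0.0185). The DUSP1-/- call held without each single array, and without DUSP1-/- control 1 the difference was 1.19 ± 0.22 (adjusted p = 0.00676). It was lost when those 2 groups were fitted alone (adjusted p = 0.0632). The DUSP1+/+ call was lost, at 1.40 to 1.61, without DUSP1+/+ LPS 2 (adjusted p = 0.0689), DUSP1+/+ LPS 3 (adjusted p = 0.0763), DUSP1+/+ control 1 (adjusted p = 0.053) or DUSP1+/+ control 2 (adjusted p = 0.075), and at 1.56 without the 2 arrays with male transcripts (adjusted p = 0.13).

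The other 3 Tap1 probe sets were dim. The brighter of them had 26, 41 and 20 in DUSP1-/- LPS arrays, 16, 19 and 13 in DUSP1-/- controls, 24, 32 and 32 in DUSP1+/+ LPS arrays, and 15, 13 and 20 in DUSP1+/+ controls. It was higher by 0.85 ± 0.20 averaged over genotypes (adjusted p = 0.0117), with controls at 20 or below, near the bottom of the scale. The remaining pair read 8 to 12 on all arrays and showed averaged differences of 0.07 ± 0.13 (adjusted p = 0.774) and -0.03 ± 0.12 (adjusted p = 0.917). Averaging all 4 Tap1 sets gave a DUSP1-/- LPS difference of 0.56 (adjusted p = 0.063).

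Tap2, the partner of Tap1 in the pump, had 521, 678 and 518 in DUSP1-/- LPS arrays, against 243, 679 and 674 in DUSP1-/- controls. It had 855, 857 and 898 in DUSP1+/+ LPS arrays, against 482, 325 and 535 in DUSP1+/+ controls. In DUSP1-/- mice 2 of 3 controls were about as high as the highest LPS array, whereas the DUSP1+/+ LPS arrays lay within a tight range above all controls. The difference of Tap2 was 0.24 ± 0.36 in DUSP1-/- mice (adjusted p = 0.759) and 0.99 ± 0.36 in DUSP1+/+ mice (adjusted p = 0.147). Without DUSP1-/- control 1 these were -0.25 ± 0.23 (adjusted p = 0.552) and 0.99 ± 0.20 (adjusted p = 0.0163).

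Tapbp, encoding tapasin, had 4385, 5730 and 4363 in DUSP1-/- LPS arrays, against 1702, 2220 and 2435 in DUSP1-/- controls. It had 4129, 4734 and 4388 in DUSP1+/+ LPS arrays, against 2220, 1784 and 2658 in DUSP1+/+ controls. All 6 LPS arrays lay above all 6 controls. Tapbp rose by 1.19 ± 0.20 in DUSP1-/- mice (2.28-fold, adjusted p = 0.00376) and by 1.01 ± 0.20 in DUSP1+/+ mice (2.01-fold, adjusted p = 0.0147). The DUSP1-/- call held under 24 of 24 alternatives. The DUSP1+/+ difference stayed about as large but no longer passed without DUSP1+/+ LPS 2 (0.96, adjusted p = 0.0659), DUSP1+/+ LPS 3 (1.01, adjusted p = 0.0631), DUSP1+/+ control 2 (0.86, adjusted p = 0.0587) or the 2 arrays with male transcripts (0.99, adjusted p = 0.0933).

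The second Tapbp probe set had 774, 1396 and 950 in DUSP1-/- LPS arrays, 212, 386 and 258 in DUSP1-/- controls, 781, 769 and 698 in DUSP1+/+ LPS arrays, and 64, 278 and 414 in DUSP1+/+ controls. It did not pass in either genotype alone (1.87 ± 0.56, adjusted p = 0.0527, and 1.94 ± 0.56, adjusted p = 0.0684), and it rose when averaged (1.91 ± 0.40, adjusted p = 0.00641). Both Tapbp sets thus read higher after LPS, with the dimmer one the more variable among controls.

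B2m was the brightest and steadiest of the probe sets. It had 9562, 8327 and 9673 in DUSP1-/- LPS arrays, 8463, 8542 and 7328 in DUSP1-/- controls, 9547, 9015 and 9377 in DUSP1+/+ LPS arrays, and 7879, 8802 and 8594 in DUSP1+/+ controls. Its LPS difference was 0.18 ± 0.14 in DUSP1-/- mice (adjusted p = 0.491) and 0.15 ± 0.14 in DUSP1+/+ mice (adjusted p = 0.683). The 95% interval of B2m ran from -0.13 to 0.49 in DUSP1-/- mice and from -0.16 to 0.45 in DUSP1+/+ mice. The second B2m set differed by 0.18 ± 0.13 (adjusted p = 0.441) and 0.07 ± 0.13 (adjusted p = 0.852). In that set all LPS arrays lay above all controls in each genotype, as in 11.3% of all genes in DUSP1-/- and 10.2% in DUSP1+/+ mice. The highest intensity of any probe set was 15228, and whether B2m signal flattens toward that end of the scale was not tested.

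**Figure D2:**
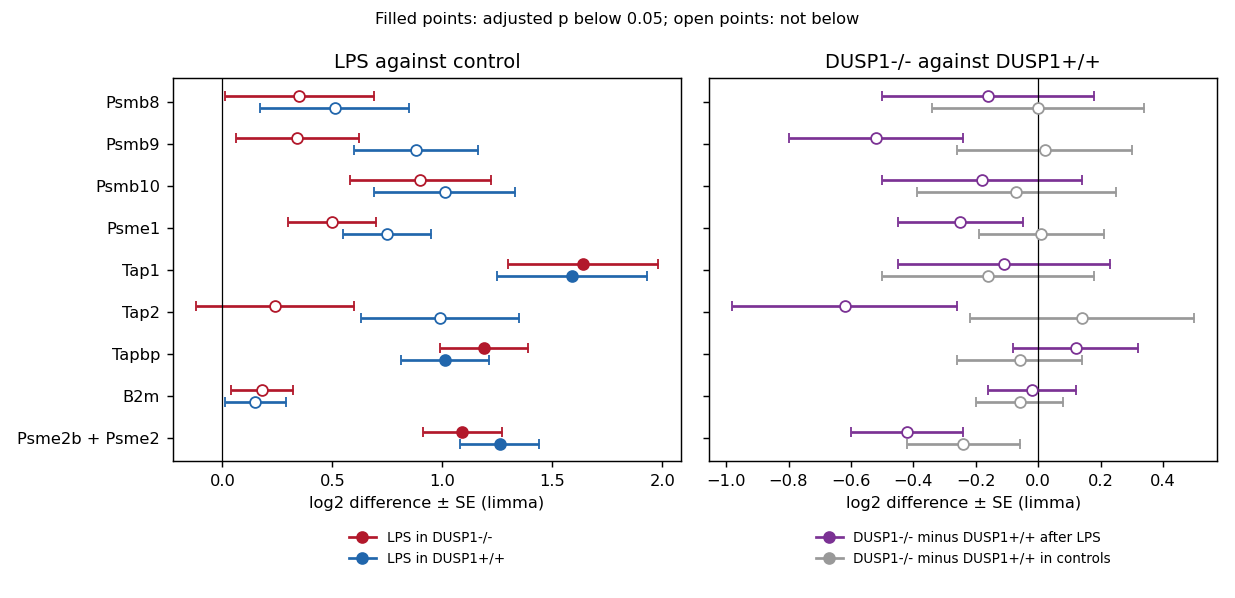
Log2 differences with limma's standard error for the 8 genes and the shared Psme2b and Psme2 set, with LPS against control on the left and DUSP1-/- against DUSP1+/+ on the right. Filled points (adjusted p below 0.05) are Tap1, Tapbp and the shared set with LPS in both genotypes, and all points between genotypes are open.

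Counted together, 2 of the 8 genes (Tap1 and Tapbp) rose with LPS in DUSP1-/- mice, where 5.54% of all genes rose. The same 2 rose in DUSP1+/+ mice, where 3.93% of all genes did. Averaged over genotypes, 4 of 8 rose (Tap1, Tapbp, Psmb10 and Psme1), against 8.52% of all genes, and none fell in any of the 3 comparisons, while 9.71% of all genes fell with LPS in DUSP1-/- mice, 4.16% in DUSP1+/+ mice and 14.3% on average over genotypes. The median difference of the 8 genes was 0.42 in DUSP1-/- mice and 0.94 in DUSP1+/+ mice, against -0.06 and -0.03 over all genes. All 8 differences were positive in both genotypes, also with the arrays shifted to 1 median, quantile normalised or cyclic-loess normalised. Psmb8 and Tap2 turned negative in DUSP1-/- mice without DUSP1-/- control 1, leaving 6 of 8 genes positive there.

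In DUSP1-/- mice 3 of 8 genes (Psmb10, Tap1 and Tapbp) had all LPS arrays above all controls, as 11.3% of all genes did. In DUSP1+/+ mice it was 8 of 8, against 10.2% of all genes. Leaving an array out can only keep or raise such a count, so doing so is no check of it. The DUSP1-/- count was 5 of 8 without DUSP1-/- LPS 2, with 16.1% of all genes then separating. These counts do not show that the LPS response differed between genotypes. The test of that difference, the interaction, called none of the 8 genes and 0% of all genes by limma, and at an unadjusted p below 0.05 it held 0 of the 8 and 800 of the 12393 genes.

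The interaction (the LPS response in DUSP1-/- mice minus that in DUSP1+/+ mice) ran from -0.75 ± 0.51 for Tap2 to 0.18 ± 0.29 for Tapbp, with an adjusted p of 1 for all 8. It was -0.54 ± 0.40 for Psmb9, -0.25 ± 0.28 for Psme1 and 0.05 ± 0.47 for Tap1. The median over the 8 genes was -0.14, against -0.05 over all genes. Without DUSP1-/- control 1 it was -0.48, and Tap2 was at -1.24 ± 0.31 (adjusted p = 0.309).

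After LPS, 7 of the 8 genes read lower in DUSP1-/- than in DUSP1+/+ mice, Tapbp being the exception, and 46.7% of all genes had a negative difference. With the arrays shifted to 1 median the count was 6 of 8. No gene passed by limma (0.145% of all genes were called lower and 0.218% higher), and none of the 8 had an unadjusted p below 0.05, as 1269 of all genes did. The median difference was -0.17, against 0.02 over all genes. The DUSP1-/- LPS and DUSP1+/+ LPS arrays used here also enter the LPS responses above, so the comparisons are not independent.

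In 3 of the 8 genes every DUSP1-/- LPS array lay below every DUSP1+/+ LPS array: Psmb9, Psme1 and Tap2. Among all genes 9.6% did so, and the count was 6 of 8 without DUSP1-/- LPS 2, where 18.1% of all genes did. Tap2 showed the widest gap, 521, 678 and 518 in DUSP1-/- against 855, 857 and 898 in DUSP1+/+ mice. That difference was -0.62 ± 0.36 (95% interval -1.41 to 0.18, adjusted p = 0.742). Psmb9 differed by -0.52 ± 0.28 (95% interval -1.14 to 0.11, adjusted p = 0.702). It was called under array quality weights (-0.66, adjusted p = 0.047), where 809 of 12393 genes were called lower. It was called under none of the other 23 alternatives, whose adjusted p reached 1. Psme1 differed by -0.25 ± 0.20 (adjusted p = 0.869). In none of the 8 did every DUSP1-/- LPS array lie above, as in 8.73% of all genes. The shared Psme2b and Psme2 set had the lower order with no overlap, at -0.42 ± 0.18 (unadjusted p = 0.0428, adjusted p = 0.536). Means of cell marker lists separated the same arrays: B cell markers averaged 8.09 to 8.35 in DUSP1-/- LPS arrays and 8.46 to 9.15 in DUSP1+/+ LPS arrays. Of that list Cd79b, Ms4a1, Cr2, Fcer2a and Blk read lower on average in DUSP1-/- LPS arrays. Cd79a read higher (mean intensity 1848 against 1409), and Pax5 was near the bottom of the scale (21.7 and 21.3). Spleen stroma markers averaged 6.17 to 6.82 in DUSP1-/- and 7.26 to 7.51 in DUSP1+/+ LPS arrays, and NK cell markers (4 of 5 measured) 6.39 to 6.62 and 6.64 to 7.62. The order was the opposite for red pulp macrophage markers, 8.62 to 9.14 in DUSP1-/- and 7.77 to 7.98 in DUSP1+/+ LPS arrays, and for dendritic cell markers (5 of 6 measured), 7.11 to 7.33 and 6.95 to 7.10. The NK cell ranges of the 2 genotypes nearly touched, as did the dendritic cell ranges. The part of these marker differences in the class I values was not tested.

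The other genes overlapped between genotypes after LPS. Their differences were 0.12 ± 0.20 for Tapbp, -0.02 ± 0.14 for B2m, -0.11 ± 0.34 for Tap1, -0.16 ± 0.34 for Psmb8 and -0.18 ± 0.32 for Psmb10, each with an adjusted p of 0.977 or more. The 95% interval for Tap1, -0.85 to 0.63, still holds changes of over 1.5-fold either way. Group means put DUSP1+/+ LPS first for 7 of the 8 genes and DUSP1-/- LPS first for Tapbp. The controls of both genotypes overlapped each other for all 8 by the probe set that represents each gene. In the second B2m set DUSP1-/- controls (7490, 8097 and 7183) lay below DUSP1+/+ controls (8331, 8455 and 8617). Of all genes 0.952% did so.

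Between the control groups, none of the 8 genes passed by limma, with differences from -0.16 ± 0.34 for Tap1 to 0.14 ± 0.36 for Tap2. Of all genes 0% were called there, and at an unadjusted p below 0.05 there were 176 genes, none of the 8 among them. Of the 8, 4 were positive and 4 were not above 0, and this split moved with the scaling. Of the 8, 7 were lower in DUSP1-/- controls with the arrays shifted to 1 median, and 7 were higher under cyclic loess. Leaving out DUSP1-/- control 1 made 7 of 8 higher, with a median of 0.30.

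**Figure D3:**
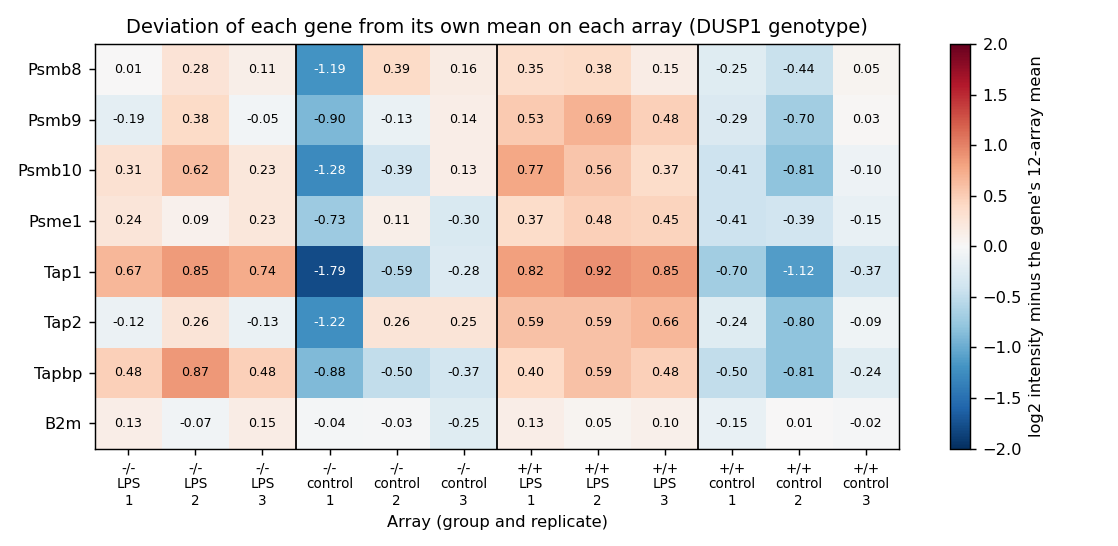
Log2 intensity of each gene minus its own mean over the 12 arrays, by array. The column of DUSP1-/- control 1 is low for 7 genes, from -0.73 for Psme1 to -1.79 for Tap1, with B2m at -0.04, and the DUSP1+/+ LPS columns are positive for all 8 genes.

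Within groups, several of the 8 genes were high or low on the same array, with B2m often apart. Averaged over the genes, each centred on its own mean, DUSP1-/- LPS arrays stood at 0.19, 0.41 and 0.22 and DUSP1-/- controls at -1.01, -0.11 and -0.06. DUSP1+/+ LPS arrays stood at 0.50, 0.53 and 0.44, and DUSP1+/+ controls at -0.37, -0.63 and -0.11. All 6 LPS arrays thus lay above all 6 controls, but the gap between DUSP1-/- control 1 and its 2 group mates was larger than the gap between those 2 and the DUSP1-/- LPS arrays. DUSP1-/- control 1 was the lowest of its group for 7 of 8 genes and DUSP1+/+ control 2 for 6 of 8. DUSP1+/+ control 3 was the highest of its group for 7 of 8, and DUSP1-/- LPS 2 for 6 of 8, while it was the lowest for Psme1 and B2m. The array DUSP1-/- control 1 also had the lowest B cell (8.81) and T cell (7.49) marker means among the controls, beside its pancreas and erythroid markers, and the part of these in its values was not tested.

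Without DUSP1-/- control 1 the standard error of the Tap1 response in DUSP1+/+ mice was 0.20, against 0.34 with it. In DUSP1+/+ mice 6 of the 8 genes then passed with LPS, where 4.67% of all genes rose: Tap1 (adjusted p = 0.00148), Tapbp (adjusted p = 0.0103), Tap2 (adjusted p = 0.0163), Psme1 (adjusted p = 0.0183), Psmb10 (adjusted p = 0.0255) and Psmb9 (adjusted p = 0.0381). In DUSP1-/- mice Tap1 and Tapbp passed, Tapbp at 1.04 ± 0.21 (adjusted p = 0.00988). Psmb9 was at 0.04 ± 0.25 there (adjusted p = 0.947). None of the 8 was called between genotypes or in the interaction without that array. The DUSP1-/- controls left in that fit, 2 and 3, had lung marker means of 7.06 and 6.75, and the part of these was not tested.

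The standard catalytic subunits, which the immunoproteasome subunits replace, did not pass with LPS in either genotype. Psmb5 had 1037, 1179 and 883 in DUSP1-/- LPS arrays, against 1180, 1439 and 1150 in DUSP1-/- controls, and 1144, 1833 and 1549 in DUSP1+/+ LPS arrays, against 853, 956 and 1191 in DUSP1+/+ controls. Its LPS difference was -0.29 ± 0.21 in DUSP1-/- mice (adjusted p = 0.479) and 0.58 ± 0.21 in DUSP1+/+ mice (adjusted p = 0.155), with an interaction of -0.87 ± 0.30 (unadjusted p = 0.0159, adjusted p = 0.776). Psmb6 differed by 0.09 ± 0.18 (adjusted p = 0.843) and 0.66 ± 0.18 (adjusted p = 0.0592). Psmb7 differed by 0.75 ± 0.44 (adjusted p = 0.343) and 0.67 ± 0.44 (adjusted p = 0.504). In DUSP1+/+ mice the 3 standard subunits thus had differences of 0.58 to 0.67, and Psmb8, Psmb9 and Psmb10 had 0.51 to 1.01.

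Each immunoproteasome subunit was set against the subunit it replaces on the same array, as a log2 difference counted from the mean of DUSP1+/+ controls. Psmb8 over Psmb5 averaged 0.30 ± 0.17 in DUSP1-/- LPS arrays and -0.34 ± 0.78 in DUSP1-/- controls, -0.07 ± 0.37 in DUSP1+/+ LPS arrays and 0.00 ± 0.18 in DUSP1+/+ controls (SD, n = 3 each). Psmb9 over Psmb6 averaged -0.03 ± 0.34, -0.29 ± 0.38, 0.23 ± 0.20 and 0.00 ± 0.27 in the same groups. Psmb10 over Psmb7 averaged 0.39 ± 0.31, 0.24 ± 1.40, 0.34 ± 0.32 and 0.00 ± 0.61. In each pair the shift with LPS was within about the spread among the controls, and it was not tested.

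The rest of the proteasome was counted from lists of its parts. Beside these counts and those of the later lists, 5.54% of all genes rose and 9.71% fell with LPS in DUSP1-/- mice. In DUSP1+/+ mice 3.93% of all genes rose and 4.16% fell. Of 11 other subunits of the 20S core, 1 rose with LPS in DUSP1-/- mice (Psma7, 0.89 ± 0.22, adjusted p = 0.0252) and 2 rose in DUSP1+/+ mice (Psma7, 1.04 ± 0.22, adjusted p = 0.0201, and Psmb2, 1.08 ± 0.26, adjusted p = 0.0333). Their medians were 0.22 and 0.58. Of 17 measured subunits of the 19S regulator, which unfolds ubiquitin-tagged proteins, Psmc3 fell by 0.75 on the log2 scale in DUSP1-/- mice (adjusted p = 0.0318) and Psmc4 rose in DUSP1+/+ mice (0.81 ± 0.21, adjusted p = 0.0475). The 19S medians were -0.17 and 0.38, and the DUSP1-/- one was 0.05 with the arrays shifted to 1 median. Of 8 other activators, inhibitors and assembly chaperones, none passed in either genotype, with medians of 0.06 and 0.67.

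After LPS none of the 11 other 20S subunits passed between genotypes, and all 11 had a negative difference (10 of 11 under cyclic loess, median -0.19). All 17 of the 19S subunits were negative too (16 with arrays shifted to 1 median or quantile normalised, 13 under cyclic loess), with a median of -0.35 and none called. In 8 of the 17, every DUSP1-/- LPS array lay below every DUSP1+/+ LPS array, as in 9.6% of all genes. The immunoproteasome subunits Psmb8, Psmb9 and Psmb10, at -0.16, -0.52 and -0.18, lay within the range of the 19S subunits, -0.57 to -0.03. The lists of whole-proteasome parts and the 8 genes share the same 6 LPS arrays, so these are descriptions of those arrays.

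**Figure D4:**
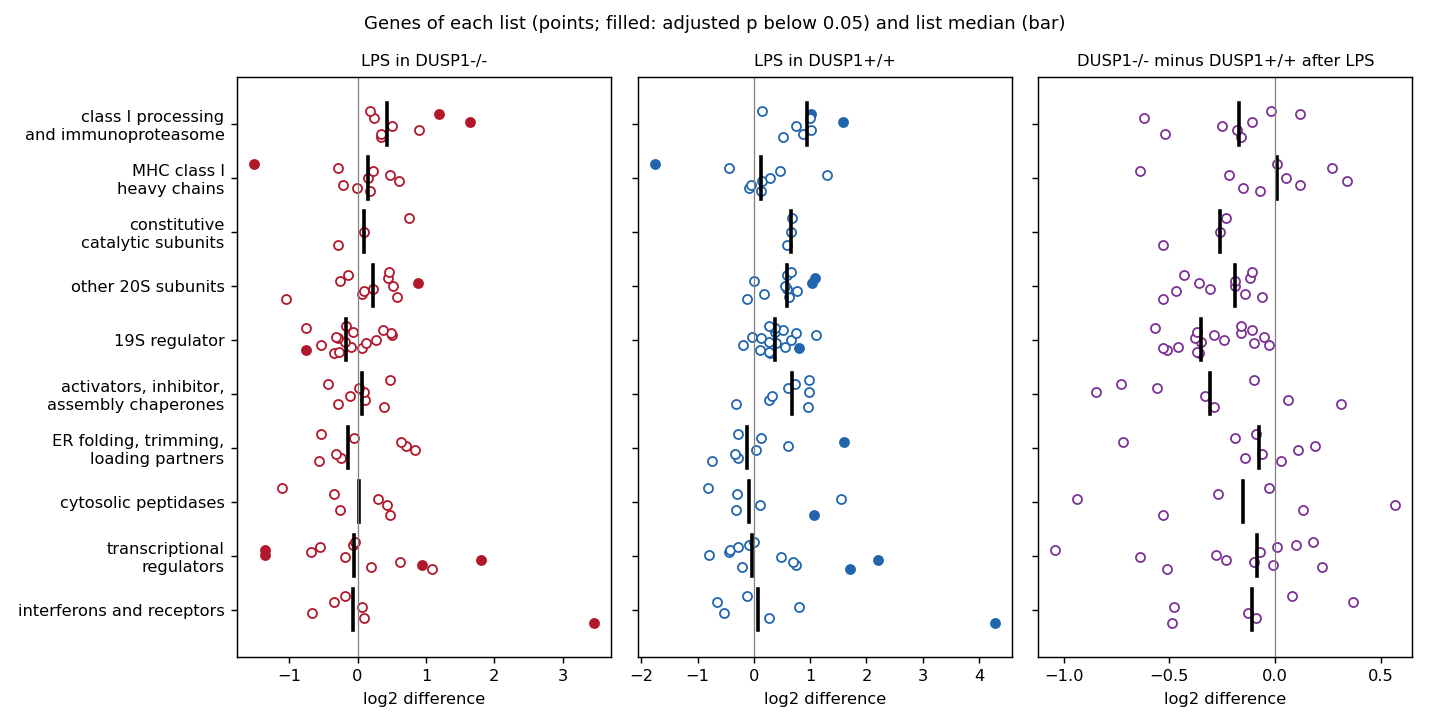
Log2 differences of the genes in each list (points, filled where adjusted p was below 0.05) and the list median (bar), for LPS against control in DUSP1-/- and in DUSP1+/+ mice and for DUSP1-/- minus DUSP1+/+ after LPS. The class I processing genes have medians of 0.42, 0.94 and -0.17, and no list has a filled point in the comparison between genotypes.

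Class I heavy chains, the molecules that B2m joins, were measured for 9 of 18 listed genes. Only Cd1d1, a class I-like molecule that presents lipids, passed with LPS: it fell by 1.51 in DUSP1-/- mice (adjusted p = 0.035) and by 1.76 in DUSP1+/+ mice (adjusted p = 0.0292). The classical heavy chain H2-K1 had 8209, 8455 and 8491 in DUSP1-/- LPS arrays, against 6420, 7976 and 7975 in DUSP1-/- controls, and 8740, 8788 and 8948 in DUSP1+/+ LPS arrays, against 7112, 8056 and 9100 in DUSP1+/+ controls. It differed by 0.18 ± 0.15 (adjusted p = 0.542) and 0.13 ± 0.15 (adjusted p = 0.743), beside 0.18 and 0.15 for B2m. H2-D1, another classical heavy chain, showed no rise, at -0.01 ± 0.40 in DUSP1-/- mice and -0.08 ± 0.40 in DUSP1+/+ mice. Heavy chain genes are near-identical in places, so a probe set named for 1 of them can take signal from others.

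Among 8 partners in the endoplasmic reticulum, none passed with LPS in DUSP1-/- mice. The tapasin relative Tapbpl rose in DUSP1+/+ mice (1.60 ± 0.35, adjusted p = 0.022). Tapbpl had 271, 326 and 264 in DUSP1-/- LPS arrays, against 103, 288 and 209 in DUSP1-/- controls, and 472, 509 and 430 in DUSP1+/+ LPS arrays, against 119, 135 and 231 in DUSP1+/+ controls. Its DUSP1-/- LPS arrays all lay below its DUSP1+/+ LPS arrays, as for Tap2 and Psmb9, at -0.72 ± 0.35 (adjusted p = 0.626). Among 6 cytosolic peptidases, Lap3, an aminopeptidase that trims peptides, rose in DUSP1+/+ mice (1.07 ± 0.26, adjusted p = 0.0333) and was at 0.48 ± 0.26 in DUSP1-/- mice (adjusted p = 0.287). The interaction called neither Tapbpl (adjusted p = 0.971) nor Lap3 (adjusted p = 1).

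Interferon-γ, a strong inducer of the class I genes, was near the bottom of the scale in controls. Ifng had 193, 115 and 260 in DUSP1-/- LPS arrays, against 18, 16 and 15 in DUSP1-/- controls, and 229, 160 and 438 in DUSP1+/+ LPS arrays, against 14, 13 and 12 in DUSP1+/+ controls. The controls lay under 20, among the dimmest values of the arrays. Against a floor of 20, Ifng was at least 8.97-fold higher with LPS in DUSP1-/- mice (adjusted p = 0.000258 in the fit to the values as deposited) and at least 12.6-fold higher in DUSP1+/+ mice (adjusted p = 0.000102). After LPS the genotypes overlapped for Ifng, at -0.49 ± 0.36 (adjusted p = 0.832). The other 5 genes of the list of interferons and receptors did not pass with LPS in either genotype.

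Irf1, the transcription factor that binds class I and immunoproteasome promoters after interferon, had 2422, 2132 and 2683 in DUSP1-/- LPS arrays, against 601, 1810 and 1312 in DUSP1-/- controls. It had 3472, 3126 and 3694 in DUSP1+/+ LPS arrays, against 1098, 798 and 1328 in DUSP1+/+ controls. Every LPS array lay above every control, and every DUSP1-/- LPS array lay below every DUSP1+/+ LPS array. Irf1 rose in DUSP1+/+ mice (1.70 ± 0.35, adjusted p = 0.0155) and did not pass in DUSP1-/- mice (1.09 ± 0.35, adjusted p = 0.0657), and between genotypes after LPS it was at -0.51 ± 0.35 (adjusted p = 0.809). Of the 12 regulators measured, Stat2, a transducer of interferon signals, rose in both genotypes (1.80 ± 0.52, adjusted p = 0.0439, in DUSP1-/- mice and 2.21 ± 0.52, adjusted p = 0.0291, in DUSP1+/+ mice). Irf8, which acts in myeloid and B cells, rose in DUSP1-/- mice (0.94 ± 0.26, adjusted p = 0.0375) and was at 0.74 ± 0.26 in DUSP1+/+ mice (adjusted p = 0.129). Rfxank and Nfya, parts of complexes that bind MHC promoters, fell by 1.35 each in DUSP1-/- mice (adjusted p = 0.0111 and 0.015). Without DUSP1-/- control 1 none of the 12 was called higher in DUSP1-/- mice and 2 were called lower. The interaction called none of these regulators.

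The genes whose profile over the 12 arrays was nearest to the mean of the 8 genes were found by the root mean square difference of centred log2 values, among 8099 genes brighter on average than the dimmest 40 percent of probe sets. The median gene lay 0.676 away from that mean. The nearest 10 outside the set were Med11 and Trip10 (0.17 each), Ptger4 (0.174), Rnf114 (0.177), Tmco4 (0.178), Rala (0.181), Fgr (0.186), Pgs1 (0.187), Syngr2 (0.189) and Med15 (0.19). Rnf114, a ubiquitin ligase, had 933, 897 and 891 in DUSP1-/- LPS arrays, against 406, 578 and 549 in DUSP1-/- controls, and 1014, 1020 and 878 in DUSP1+/+ LPS arrays, against 419, 459 and 672 in DUSP1+/+ controls. It has the low DUSP1-/- control 1 and the LPS step of the class I genes.

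Among the 8 genes themselves, Psmb9 and Tap2 were each other's nearest gene of all those compared, at 0.174. For the other 6 the nearest gene was outside the set: Mdk for Psmb8 (0.155), Gfi1 for Psmb10 (0.199), Polr3a for Psme1 (0.161), Mvp for Tap1 (0.193), Stk19 for Tapbp (0.157) and Ppp2r2d for B2m (0.0924). The nearest other gene of the set was Tap2 for Psmb8 (0.227), Psmb9 for Psmb10 (0.247), Psmb8 for Psme1 (0.255), Tapbp for Tap1 (0.356), Psmb10 for Tapbp (0.251) and Psme1 for B2m (0.311, only 917th among all genes for B2m). Tap1 and Psmb9, which share the upstream stretch printed above, were therefore not each other's nearest. The distance depends on the size of a gene's change as well as on its shape, and Tap1 had the largest LPS difference of the 8 genes and B2m the smallest.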

How the data were processed

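Each of 12 MOE430A 2.0 arrays (Affymetrix) held the spleen RNA of 1 mouse. The authors made the expression values from CEL files with RMA in the R affy package, per the labels' protocols, and the version is not given in the sources used here. The deposited values are intensities on a linear scale, whole numbers from 6 to 15228, of which 30.8% are under 20. From them log2 values were computed, 64 control probe sets were left out of 22690, and a model with 4 group means was fitted by lmFit and eBayes of limma 3.58.1 under R 4.3.3, with 8 residual and 2.722 prior degrees of freedom. The method was tested on simulated data. Each contrast was adjusted over 22626 probe sets with a threshold of 0.05.

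Of the tested sets 20380 carry 1 gene symbol in the platform table, 691 several and 1555 none. A gene was represented by its brightest set naming it alone, and an _x_at set stood in only for a gene that had no other. Named genes were all 9 listed genes, up to 4 called genes of each pathway list per contrast, and always Irf1, Ifng, Psmb5, Psmb6, Psmb7 and Dusp1. H2-K1 and H2-D1 were added after their values were seen, as were the single genes named from marker lists. The genes and lists were chosen with earlier results of these data known, and the 10 nearest profiles were chosen by rule. The number of arrays, the signal over background and arrays that stand apart limit the precision. Array quality weights ran from 0.348 for DUSP1-/- control 2 to 3.63 for DUSP1-/- LPS 1, with DUSP1-/- control 1 at 0.503. A floor of 20 was set for Ifng after seeing the data. Replicate numbers do not come with a stated litter or day. Correlations of deviations between same-numbered arrays ran from 0.14 to 0.28 between the 2 control groups and from -0.28 to 0.63 elsewhere. They do not establish that mice were paired, and the main fit has no block. Alternatives were 3 other scalings, 16 added before log2, a filter on dim sets, a robust variance trend, array weights, single contrasts fitted alone, a replicate block, averaged probe sets and arrays left out.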

Additional observations from a re-analysis of the deposited data

How the results depend on the processing

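The number of the 8 genes called with LPS in DUSP1-/- mice (2) was 4 with every array shifted to 1 median, where 7.51% of all genes rose. It was 1 with only the 2 groups fitted (3.53% of all genes) or with a gene's probe sets averaged (share of all genes not computed). With 1 array left out it ran from 2 to 3 (3.38% to 5.71% of all genes). In DUSP1+/+ mice (2) it was 6 under array quality weights, where 6.86% of all genes rose. Leaving out the 3 arrays with pancreas transcripts left 1 DUSP1-/- control, with Psme1 at 0.70 and Tap2 at 1.06 in DUSP1+/+ mice (0.75 and 0.99 with all arrays). Leaving out DUSP1+/+ controls 2 and 3, the arrays with male transcripts, left 1 control assumed to vary like the other groups (Tap1 at 1.56 and Tapbp at 0.99). With 1 array left out the DUSP1+/+ count ran from 0 to 6. It was 0 without DUSP1+/+ LPS 2, DUSP1+/+ LPS 3 or DUSP1+/+ control 2 (2.07%, 1.71% and 2.18% of all genes). It was 6 without DUSP1-/- control 1 (4.67% of all genes). After LPS the count between genotypes (0) was 1 under array quality weights, where 809 of 12393 genes were called lower. It was 0 with any 1 array left out. The averaged response (4) gave 3 to 6, and 4 to 5 with 1 array left out. Of all genes 12% rose in the averaged response with every array shifted to 1 median, and 6.57% to 8.7% with 1 array left out. In controls and in the interaction the count of the 8 genes was 0 throughout. Genes without overlap numbered 3 to 5 with LPS in DUSP1-/- mice, 8 throughout in DUSP1+/+ mice and 3 to 6 between genotypes after LPS with 1 array left out, the highest counts (5 and 6) both being without DUSP1-/- LPS 2. Leaving an array out cannot lower these overlap counts, and the share of all genes without overlap rose too. In DUSP1+/+ mice it went from 10.2% to 19% without DUSP1+/+ LPS 1. These left-out overlap counts were added after seeing the data. With the replicate number as a block no call changed. There were 2 genes with LPS in DUSP1-/- mice (5.23% of all genes rose), 2 in DUSP1+/+ mice (3.36%) and 4 averaged (8.03%). The count was 0 in the other 3 comparisons. The cause of these shifts was not tested. Shifting each array to 1 median moved the median of all probe sets with LPS to 0.17 in DUSP1-/- mice (-0.05 as deposited) and to 0.10 in DUSP1+/+ mice (-0.02 as deposited). It moved the share of called sets that were higher to 60.7% in DUSP1-/- mice (40.4% as deposited) and to 62.8% in DUSP1+/+ mice (51.4% as deposited). No called difference of the 8 genes changed sign. Fitting only the groups of the contrast gives no value for the interaction or the averaged response, which need all groups.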
